A study of Mus musculus with 12 samples.

Results

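The 31 genes described here encode enzymes of nucleotide and folate synthesis, and they were chosen by name as the rows with these symbols among the 23366 gene symbols of each deposited table. A member had to reach 10 normalized reads in at least 2 libraries of a table to be tested, and all 31 did so in each of the 3 tables. They comprised 5 pyrimidine genes, 14 purine genes, 2 nucleoside diphosphate kinases, 7 deoxynucleotide genes and 3 genes of one-carbon folate metabolism. Transcript levels came from sequencing rRNA-depleted RNA of Beko cells, a cultured mouse pre-T cell line. The study asked how the response of Notch target genes depends on HDAC3, a histone deacetylase. Its 12 libraries formed 6 groups of 2, and each treated group was compared with its own controls. DAPT, an inhibitor of the γ-secretase that Notch receptors need for signalling, was given at 10 µg/ml for 24 h, with DMSO alone as control. The histone deacetylase inhibitor apicidin was given at 0.01 µg/ml for 24 h and had DMSO controls of its own. In the hairpin experiment, cells were infected with a plasmid expressing an shRNA against Hdac3 (shHdac3) or a scrambled shRNA, and the labels mark the harvest as 96 h after puromycin. The labels name 1 hairpin construct for Hdac3 and 1 cell line. They do not state whether replicates were separate cultures, so p-values measure no more than library-to-library spread, which may be technical.

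Purine nucleotides are built step by step on a phosphoribosyl backbone (PRPP) up to inosine monophosphate (IMP), which then branches to AMP and GMP. Pyrimidines are first made as a free ring and joined to PRPP afterwards. Ribonucleotide reductase turns ribonucleotides into the deoxynucleotides used for DNA, thymidylate synthase adds the methyl group that makes dTMP, and folate enzymes supply the one-carbon units that the purine ring and dTMP need. Salvage enzymes reuse bases and nucleosides instead. Cycling thymocyte precursors depend on these routes to copy their DNA.

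Between 37237080 and 42815304 reads were assigned to genes per library in the DAPT experiment, 21766984 to 29652001 in the apicidin experiment and 24673559 to 29004315 in the hairpin experiment. All 8 pre-T markers checked (Ptcra, Cd3e, Cd3d, Cd3g, Lck, Rag1, Notch1 and Dntt) were detected. The B cell genes Ms4a1 and Pax5 and the erythroid genes Hbb-b1 and Hba-a1 were at 0 in every library. These lists were not wholly at 0: the 4 B cell markers summed to at most 12.3 normalized reads per library. The 4 erythroid markers summed to at most 48.1. The hairpin lowered its target: Hdac3 stood at 774 and 819 normalized reads against 2012 and 1930 (log2 change -1.31). Normalized reads are whole reads divided by a size factor for each library. The factors were set separately for each experiment, so levels are compared only within one. In bulk RNA, fewer cells of a type and less RNA per cell cannot be told apart.

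DAPT lowered most of the set and shHdac3 raised most of it. With apicidin the median change was smaller and more genes were called lower than higher, though Mthfd1l changed by -0.54. With DAPT, 27 of 31 genes were lower at an adjusted p under 0.05 and 1, Rrm2, was higher. Over all 12840 genes tested, 23.1% were lower and 20.1% higher. The median change of the 31 genes was -0.37 on the log2 scale, equal to -22.4%, beside 0.00 for all genes tested. With shHdac3, 22 of 31 genes were higher and 2, Prps2 and Impdh1, were lower, against 22.5% higher and 19.4% lower among 12482 genes tested. The median was 0.20, or 14.8%, beside 0.00 for all genes. With apicidin, 12 were lower and 4 (Gart, Aprt, Dck and Shmt1) higher, against 19.9% and 18.2% of 12463 genes, and the median was -0.06. With upper-quartile size factors the share of all called genes that were higher moved from 46.6% to 56.5% with DAPT and from 53.8% to 43.5% with shHdac3; the 31 genes then had 27 lower and 1 higher with DAPT and 17 higher and 2 lower with shHdac3. None of the 31 genes changed by as much as 2-fold in any comparison. Adjusted p-values are from limma with Benjamini-Hochberg adjustment over all genes tested, and log2 changes are on the log2(value + 1) scale with the SE of that fit.

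**Figure D1:**
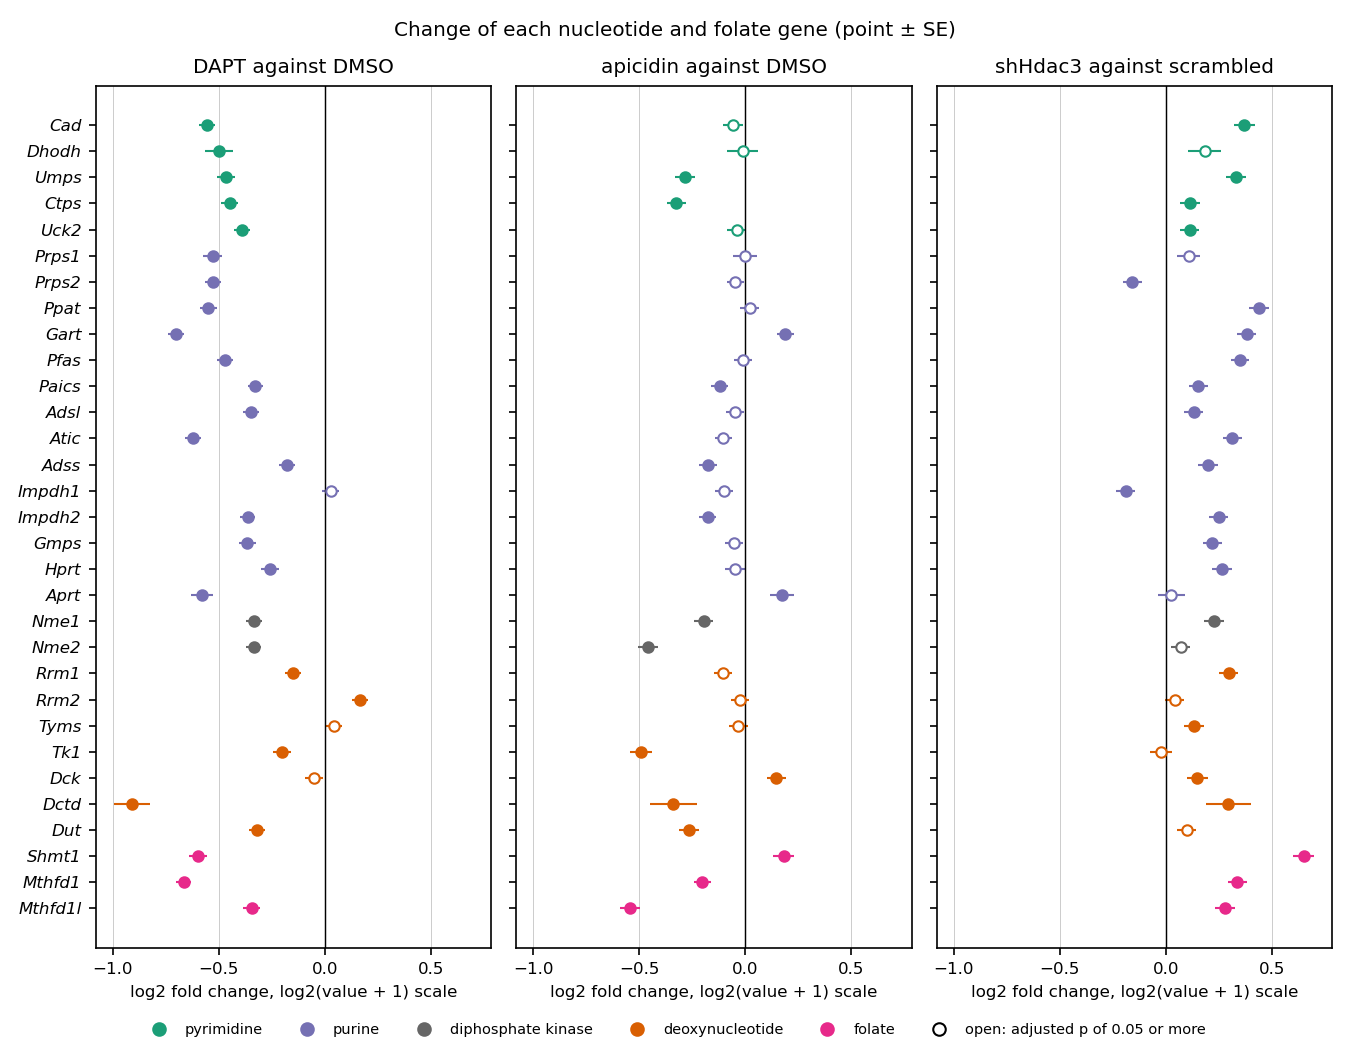
Log2 fold change (log2(value + 1) scale, horizontal axis) of each of the 31 genes in the 3 comparisons, with the SE of the limma fit as bars (n = 2 libraries per group); filled points passed an adjusted p under 0.05 and colours give the role. With DAPT 28 of 31 points lie left of 0, and with shHdac3 28 of 31 lie right of 0.

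The libraries themselves separated in the same way. In the DAPT experiment both treated libraries lay below both controls for 27 genes and above them for 2, and for Impdh1 and Dck the groups overlapped. Among all genes tested, 35.5% lay below and 34.5% above without overlap. In the hairpin experiment 26 genes lay above the scrambled libraries and 2 below, with Aprt, Nme2 and Tk1 overlapping, beside 35.6% above and 33.6% below for all genes. In the apicidin experiment 18 lay below, 4 above and 9 overlapped, beside 34.6% below and 34.4% above. The reads of the 31 genes made up 0.464% and 0.466% of the assigned reads with DAPT and 0.558% and 0.575% with DMSO. In the hairpin experiment they made up 0.468% and 0.474% for shHdac3, compared with 0.411% and 0.407% for the scrambled libraries. With apicidin it was 0.408% and 0.404% against 0.419% and 0.403%, which overlapped.

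**Figure D2:**
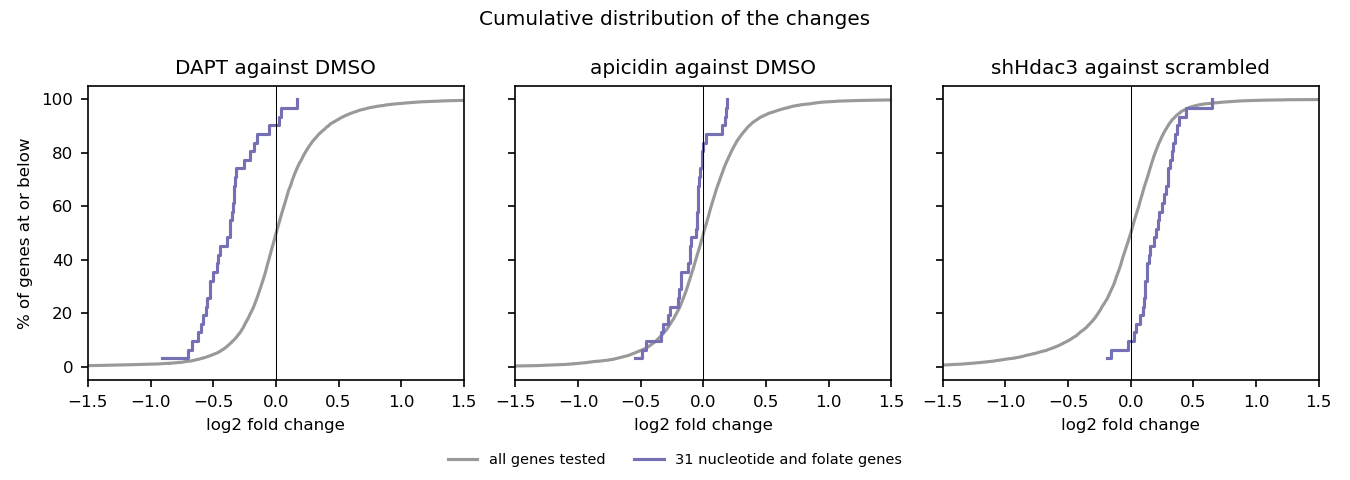
Share of genes (%) at or below each log2 fold change for the 31 genes and for all genes tested in the same comparison (the few genes past the ends of the axis are counted but not drawn). The curve of the 31 genes lies left of the curve of all genes with DAPT over most of the range (medians -0.37 and 0.00), close to it with apicidin (-0.06 and 0.00) and right of it with shHdac3 (0.20 and 0.00).

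Promoter sequences from RefSeq (GRCm38.p6, 250 bases before to 50 after the start site) were found for 29 of 31 genes. Several motif sets were searched on both strands: the E-box CACGTG bound by Myc and related factors, the E2F-type sequences TTTGGCGC, TTTCGCGC and TTCCCGCC, the Notch effector RBPJ sequence GTGGGAA, and CCAAT. The palindromic CACGTG reads alike on both strands, and no matches of different sets overlapped in these genes. The E-box was present in 5 of 29 genes (17.2%: Atic, Impdh2, Nme1, Paics and Tyms), beside 8.09% of all 27025 genes with a window and 11.6% of the 9361 of these tested with DAPT; a match in any window of a gene counted. An E2F-type sequence was present in 4 (13.8%: Mthfd1, Ppat, Prps1 and Rrm1), beside 3.39% and 6.39%. GTGGGAA was present in Dctd and Shmt1 (6.90%), beside 7.25% and 7.14%, and CCAAT in 11 (37.9%), beside 41.1% and 42.9%. A match is a description of letters in a window and not a binding site, and no binding was measured.

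Windows are printed for 6 genes, chosen after their matches and changes were seen. The purine genes Atic and Paics show the E-box in capitals, and Ppat, the neighbour of Paics, shows E2F-type matches and holds no CCAAT match. Of the reductase subunits, whose changes with DAPT had opposite signs, Rrm1 shows E2F-type and CCAAT matches and Rrm2 shows CCAAT alone. Shmt1, with the largest rise with shHdac3, shows the RBPJ sequence. Capitals mark only the sets named here for each gene. Atic, Paics and Shmt1 also hold a CCAAT match each, which is left in lower case. All read 5′ to 3′ on the strand of the gene: Atic at chr1:71556906-71557205 (plus strand), Paics at chr5:76951052-76951351 (plus), Ppat at chr5:76951529-76951828 (minus), Rrm1 at chr7:102441445-102441744 (plus), Rrm2 at chr12:24708004-24708303 (plus) and Shmt1 at chr11:60811216-60811515 (minus).
Atic: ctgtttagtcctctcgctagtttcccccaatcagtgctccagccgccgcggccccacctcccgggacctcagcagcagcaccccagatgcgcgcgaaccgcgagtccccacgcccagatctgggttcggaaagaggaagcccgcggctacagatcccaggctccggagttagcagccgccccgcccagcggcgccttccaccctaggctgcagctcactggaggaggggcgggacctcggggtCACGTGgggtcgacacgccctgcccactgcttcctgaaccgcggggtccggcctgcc
Paics: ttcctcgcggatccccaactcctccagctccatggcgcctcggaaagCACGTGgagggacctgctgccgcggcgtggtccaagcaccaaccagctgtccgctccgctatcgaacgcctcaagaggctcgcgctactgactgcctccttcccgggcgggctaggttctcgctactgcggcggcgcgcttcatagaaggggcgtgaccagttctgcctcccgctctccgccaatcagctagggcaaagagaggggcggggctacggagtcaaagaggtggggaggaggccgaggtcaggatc
Ppat: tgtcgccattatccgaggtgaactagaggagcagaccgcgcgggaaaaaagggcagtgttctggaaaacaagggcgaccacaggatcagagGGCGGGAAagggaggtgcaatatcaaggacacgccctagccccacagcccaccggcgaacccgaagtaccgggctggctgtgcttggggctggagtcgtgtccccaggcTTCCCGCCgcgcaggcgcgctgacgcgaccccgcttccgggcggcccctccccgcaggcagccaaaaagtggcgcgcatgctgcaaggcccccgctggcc
Rrm1: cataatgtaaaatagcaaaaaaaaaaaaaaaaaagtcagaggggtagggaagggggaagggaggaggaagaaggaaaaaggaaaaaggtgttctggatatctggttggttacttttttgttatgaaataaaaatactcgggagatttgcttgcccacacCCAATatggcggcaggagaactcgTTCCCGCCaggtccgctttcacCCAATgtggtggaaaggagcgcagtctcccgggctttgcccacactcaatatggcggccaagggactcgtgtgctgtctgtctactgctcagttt
Rrm2: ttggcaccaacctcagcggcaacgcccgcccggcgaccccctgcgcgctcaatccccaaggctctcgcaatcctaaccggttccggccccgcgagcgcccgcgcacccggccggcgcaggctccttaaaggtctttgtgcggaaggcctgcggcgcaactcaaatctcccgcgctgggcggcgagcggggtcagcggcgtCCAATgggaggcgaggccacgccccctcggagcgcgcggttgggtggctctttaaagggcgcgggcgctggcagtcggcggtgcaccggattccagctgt
Shmt1: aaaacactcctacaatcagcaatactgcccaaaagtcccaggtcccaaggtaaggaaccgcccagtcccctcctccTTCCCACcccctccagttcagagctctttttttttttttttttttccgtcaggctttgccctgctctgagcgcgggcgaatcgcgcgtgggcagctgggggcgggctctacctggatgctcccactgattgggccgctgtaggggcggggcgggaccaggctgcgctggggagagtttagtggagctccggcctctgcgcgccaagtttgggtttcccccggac

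The 3 genes of pyrimidine ring synthesis fell with DAPT, with a median of -0.50. Cad encodes the multifunctional enzyme that starts the ring. Its level was 6756 and 6850 normalized reads with DAPT and 9718 and 10284 with DMSO, so that both treated libraries lay below both controls (log2 change -0.56 ± 0.04, adjusted p = 5.3e-11). With shHdac3, Cad stood at 5715 and 6394 against 4513 and 4841, above the controls (0.37 ± 0.05, adjusted p = 1.4e-08). With apicidin it stood at 4878 and 4422 against 4853 and 4805, and the groups overlapped (-0.06 ± 0.05, adjusted p = 0.37). Umps, which joins the ring to PRPP and forms UMP, fell with DAPT (-0.46) and with apicidin (-0.29) and rose with shHdac3 (0.33). Dhodh, the mitochondrial dehydrogenase between these enzymes, fell with DAPT (-0.50 ± 0.07). Its value with shHdac3 was 0.18 ± 0.08 (adjusted p = 0.051), which became a higher call under 5 of 13 alternatives, among them TMM factors and leaving out shHdac3 replicate 2 or scrambled replicate 2 (adjusted p from 0.016 to 0.43 over all 13). With apicidin it was -0.01 ± 0.07.

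The other pyrimidine genes act after the ring is made. Ctps, the CTP synthase, fell with DAPT (-0.45) and apicidin (-0.33), and Uck2, a uridine and cytidine salvage kinase, fell with DAPT (-0.39). Both rose by 0.11 on the log2 scale with shHdac3, at adjusted p = 0.043 for Ctps and 0.037 for Uck2. Those small rises were lost when 1 library was left out, Ctps without either shHdac3 or either scrambled library, and Uck2 without shHdac3 replicate 1 or scrambled replicate 1. DESeq2 did not call them either.

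All 6 genes that build the purine ring from PRPP to IMP fell with DAPT, with a median of -0.51, and all 6 rose with shHdac3, with a median of 0.33. Gart carries 3 activities of this route, including a formyl transfer from folate. Its level was 4876 and 4897 with DAPT against 7996 and 7906 with DMSO (-0.70 ± 0.04, adjusted p = 5.0e-13), 5133 and 4972 with shHdac3 against 3899 and 3858 (0.38 ± 0.04, adjusted p = 1.0e-09), and 4223 and 4175 with apicidin against 3669 and 3702 (0.19 ± 0.04, adjusted p = 0.0014). The groups did not overlap in any of these comparisons, and Gart was the only higher call of apicidin that held under all 13 alternative settings. Exons of a gene on the opposite strand, Gm15964, cover 19.7% of the exonic bases of Gart in GENCODE M21, and the strand setting of the read counting is not given in the sources used here.

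Atic, which carries out the final formyl transfer and ring closure, stood at 4838 and 4779 with DAPT against 7497 and 7318 (-0.62 ± 0.04), and at 4452 and 4288 with shHdac3 against 3537 and 3494 (0.31 ± 0.04). Both treated groups stood clear of their controls, on opposite sides. Ppat, the amidotransferase that commits PRPP to purines, showed the largest rise of this route with shHdac3, at 3606 and 3482 against 2606 and 2616 (0.44 ± 0.05), and fell with DAPT (-0.55 ± 0.04). Pfas, which adds a nitrogen to the growing ring, fell by 0.47 with DAPT and rose by 0.35 with shHdac3 on the log2 scale. In the Atic promoter window printed earlier the E-box begins 7 bases before the start site, and in that of Paics 203 bases before it. Ppat and Paics are neighbours on chromosome 5 on opposite strands with start sites 276 bases apart in RefSeq, and Ppat holds E2F-type sequences beginning 159 and 50 bases before its start. In GENCODE M21 6.15% of the exonic bases of Ppat and 8.67% of those of Paics lie opposite the other gene. Paics and Adsl, which act in the middle of the route, moved less, by -0.33 and -0.35 with DAPT and by 0.15 and 0.13 with shHdac3. With shHdac3 the Paics call was lost without shHdac3 replicate 1 and the Adsl call without shHdac3 replicate 1 or scrambled replicate 2. The Adsl call was also lost in DESeq2 and with upper-quartile factors. With apicidin, Paics fell by 0.12 on the log2 scale (adjusted p = 0.028), a call lost in DESeq2 and without either apicidin library or DMSO replicate 1. The remaining 4 genes of the route, Ppat, Pfas, Adsl and Atic, did not pass with apicidin (-0.10 to 0.02), although Atic did with a minimum of 50 and in edgeR (adjusted p from 0.040 to 0.23 over its alternatives).

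PRPP itself is made by Prps1 and Prps2, whose changes with DAPT were nearly equal, -0.53 each. With shHdac3 Prps2 stood at 7497 and 7039 against 8047 and 8167 and fell (-0.16 ± 0.05, adjusted p = 0.0038), which did not hold without shHdac3 replicate 2. Prps1 was at 1437 and 1341 against 1312 and 1262 in the same libraries and did not pass (0.11 ± 0.05, adjusted p = 0.10), except without shHdac3 replicate 2 (adjusted p from 0.039 to 0.52 over its alternatives). The enzyme pair therefore lay on opposite sides of the scrambled libraries, and the difference between the 2 genes was not tested.

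From IMP the routes to AMP and GMP divide. Adss, which makes the AMP precursor from IMP, and Gmps, which makes GMP, fell with DAPT (-0.18 and -0.37) and rose with shHdac3 (0.20 and 0.22). The IMP dehydrogenases, which open the GMP branch, differed from each other. Impdh2 stood at 11107 and 11159 with DAPT against 14372 and 14293 (-0.36 ± 0.04), whereas Impdh1 stood at 6084 and 6148 against 6210 and 5789 (0.03 ± 0.04, adjusted p = 0.60). With shHdac3, Impdh2 rose to 7622 and 7446 from 6515 and 6164 (0.25 ± 0.04), and Impdh1 fell to 3127 and 3164 from 3543 and 3624 (-0.19 ± 0.05, adjusted p = 0.00063). With shHdac3 the enzymes thus changed in opposite directions, while with DAPT the Impdh1 groups overlapped and its estimate ranged from -0.02 to 0.08 over the alternatives. Of the 50-base windows of the Impdh2 transcript, 73.9% are identical to the pseudogene Impdh2-ps, so reads of these may have been assigned to either. Among the salvage enzymes, Hprt, which recovers hypoxanthine and guanine, fell by 0.26 with DAPT and rose by 0.27 with shHdac3 on the log2 scale. Aprt, which recovers adenine, fell with DAPT (-0.58 ± 0.05) and stood at 961 and 841 against 903 and 861 with shHdac3, where the groups overlapped. Its rise with apicidin (0.17 ± 0.06, adjusted p = 0.022) was lost in DESeq2 and without apicidin replicate 2.

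The nucleoside diphosphate kinases Nme1 and Nme2, which convert diphosphates to triphosphates of all bases, fell with DAPT by the same amount, -0.33 each. With apicidin Nme2 showed one of the larger falls of the set, with 3345 and 3499 against 4917 and 4495 (-0.46 ± 0.05, adjusted p = 7.7e-07), and Nme1 fell by 0.20. The Nme1 call was lost without apicidin replicate 1. With shHdac3 Nme1 rose (0.23 ± 0.05), and Nme2 overlapped its controls (0.07 ± 0.05). The genes are neighbours on chromosome 11, and 54.5% of the 50-base windows of Nme2 and 11.8% of those of Nme1 are shared with the read-through transcript Gm20390, so reads may have been split between them.

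With DAPT the deoxynucleotide genes were the most mixed group: 4 of 7 fell, 1 rose and 2 did not pass, with a median of -0.15. The subunits of ribonucleotide reductase separated: the large subunit Rrm1 stood at 18577 and 18368 against 19953 and 21018 with DMSO (-0.15 ± 0.04, adjusted p = 0.0024), while the small subunit Rrm2 stood at 17916 and 18442 against 15894 and 16540 (0.16 ± 0.04, adjusted p = 0.00088). Rrm1 lay below and Rrm2 above its controls without overlap, and without DAPT replicate 2 the Rrm1 call was just lost (adjusted p = 0.050; 7.2e-06 to 0.050 over its alternatives). With shHdac3, Rrm1 stood at 11677 and 11565 against 9390 and 9534 and rose (0.30 ± 0.05), and Rrm2 stood at 7739 and 7717 against 7660 and 7352 (0.04 ± 0.04, adjusted p = 0.48). The printed window of Rrm1 holds an E2F-type sequence and 2 CCAAT matches. That of Rrm2 holds 1 CCAAT match and none of the E2F-type sequences searched. Any part of these matches in the changes was not tested. Apicidin left both short of the threshold, at -0.10 for Rrm1 and -0.02 for Rrm2; Rrm1 passed with a minimum of 50 and in edgeR (adjusted p from 0.038 to 0.34 over its alternatives). These are separate tests of each gene, and the difference between the subunits was not tested.

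Dctd, the dCMP deaminase that feeds dUMP to thymidylate synthesis, had the largest fall of all 31 genes with DAPT, from 506 and 495 to 267 and 265 (-0.91 ± 0.08, adjusted p = 9.5e-09), or -46.8%. It was also the gene with the lowest counts of the set and the widest SE. With shHdac3 it stood at 300.3 and 286 against 218 and 261 (0.29 ± 0.11, adjusted p = 0.021), and with apicidin at 190.4 and 174 against 228 and 232 (-0.34 ± 0.11, adjusted p = 0.023). Both of those calls were lost in DESeq2 and without single libraries, namely shHdac3 replicate 1 or scrambled replicate 1, and apicidin replicate 2 or DMSO replicate 2. Dut, which removes dUTP and yields dUMP, fell with DAPT (-0.32) and apicidin (-0.27), and its value with shHdac3 was 0.10 ± 0.04 (adjusted p = 0.070). Tyms, the thymidylate synthase, did not follow these genes with DAPT: its level was 5295 and 5394 against 5267 and 5117 (0.04 ± 0.04, adjusted p = 0.40). The Tyms promoter window holds the E-box, as do those of Atic and Paics, which fell with DAPT. Any part of the E-box in these values was not tested. The rise of Tyms with shHdac3 (0.13 ± 0.05, adjusted p = 0.020) was lost in DESeq2 and without shHdac3 replicate 2 or scrambled replicate 2.

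Of the deoxynucleoside salvage kinases, Tk1 phosphorylates thymidine and Dck deoxycytidine and purine deoxynucleosides. Tk1 showed its largest change with apicidin, at 1112 and 1191 against 1642 and 1594 (-0.49 ± 0.05, adjusted p = 9.6e-07), well below the controls. It fell less with DAPT (-0.20 ± 0.04) and overlapped its controls with shHdac3 (-0.02 ± 0.05). Dck overlapped its controls with DAPT (-0.05 ± 0.04) and rose with apicidin (0.15) and with shHdac3 (0.15). The apicidin call for Dck was lost in DESeq2 and without either apicidin library, and the shHdac3 call was lost in DESeq2 and without shHdac3 replicate 1 or scrambled replicate 1.

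All 3 folate genes fell with DAPT and rose with shHdac3, and Shmt1 had the widest gap between these responses of the 31 genes. Shmt1, the cytosolic serine hydroxymethyltransferase that loads a one-carbon unit from serine onto folate, had 2051 and 2058 normalized reads with DAPT against 3143 and 3074 (-0.60 ± 0.04, adjusted p = 1.1e-10). With shHdac3 it had 2473 and 2429 against 1561 and 1559 (0.65 ± 0.05, adjusted p = 1.3e-15), the largest rise of the 31 genes and 57.0% above the controls. With apicidin it had 1431 and 1462 against 1280 and 1270 (0.18 ± 0.05, adjusted p = 0.0067). The replicates of each group lay close together and the groups did not overlap in any of the 3 experiments, although the apicidin call was lost in DESeq2 and without apicidin replicate 2. In the printed Shmt1 window the RBPJ sequence lies on the opposite strand, beginning 174 bases before the start site. Mthfd1, the cytosolic enzyme that interconverts the one-carbon folates used for purines and dTMP, fell with DAPT from 7938 and 7867 to 4933 and 5025 (-0.67 ± 0.04), rose with shHdac3 (0.34 ± 0.04) and fell with apicidin (-0.20 ± 0.04). Mthfd1l, the mitochondrial enzyme that releases formate, had the largest fall of the set with apicidin, at 1757 and 1854 against 2683 and 2583 (-0.54 ± 0.05, adjusted p = 6.9e-08). It fell with DAPT (-0.35) and rose with shHdac3 (0.28).

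**Figure D3:**
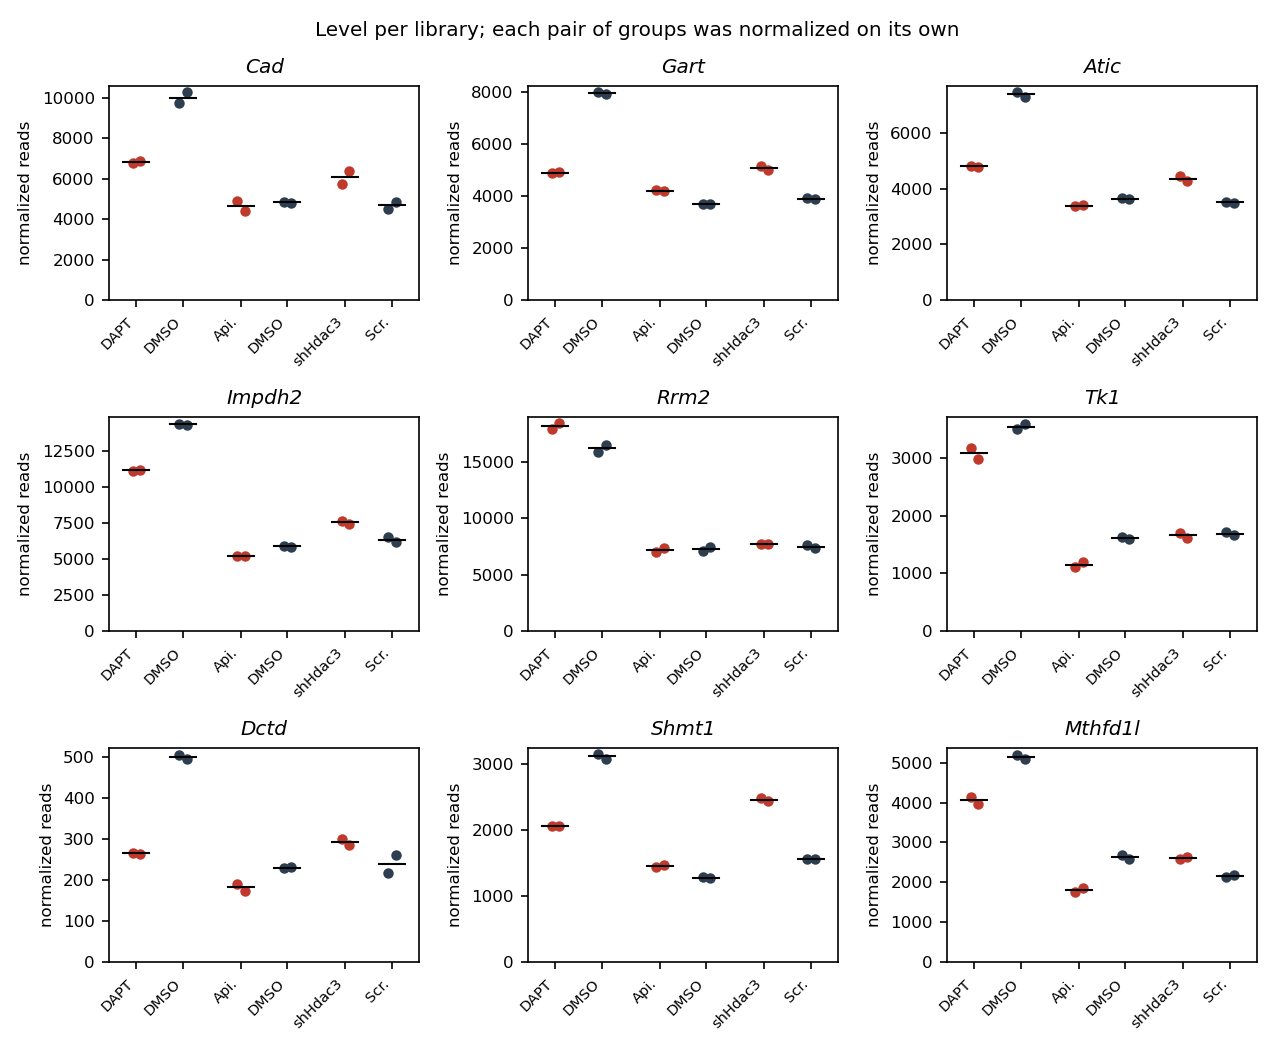
Normalized reads per library (vertical axis from 0) of 9 genes; red points are treated and dark points control libraries, and bars mark the mean of 2. Each pair of groups was normalized on its own, so heights are comparable within a pair only: for Shmt1 the DAPT points (2051 and 2058) lie below and the shHdac3 points (2473 and 2429) above their controls.

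The difference between responses was tested directly, in limma on all 12 libraries as 6 groups. The DAPT and hairpin experiments differ in duration, mode of delivery and type of control, and these cannot be told apart from the agent. The change with DAPT was lower than the change with shHdac3 for 28 of 31 genes and higher for Impdh1 (0.22 ± 0.06), against 24.8% lower and 21.5% higher of 12388 genes tested. Rrm2 (0.12 ± 0.06, adjusted p = 0.083) and Tyms (-0.09 ± 0.06, adjusted p = 0.21) did not pass. The lower calls of Tk1 and Dck were lost under some alternatives. The widest gaps were those of Shmt1 (-1.25 ± 0.06), Dctd (-1.20 ± 0.14) and Gart (-1.08 ± 0.05). In 27 of 31 genes the estimates with DAPT and shHdac3 had opposite signs, whether or not each passed its own test; among these the sign of Impdh1 with DAPT and of Aprt with shHdac3 turned under some alternatives.

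The apicidin response also differed from that of the hairpin, although both act on histone deacetylases. It was lower than the shHdac3 response for 24 genes, beside 20.3% lower and 15.9% higher of 12233 genes tested. The other 7 (Dhodh, Prps1, Prps2, Impdh1, Aprt, Rrm2 and Dck) did not pass, and the lower calls of Tyms, Uck2 and Adsl were lost under some alternatives. The largest gap was in Mthfd1l, which fell with apicidin and rose with shHdac3 (-0.82 ± 0.06), followed by Dctd (-0.63 ± 0.14) and Umps (-0.62 ± 0.06). Duration (24 and 96 h) and the mode of delivery differ between these experiments and cannot be told apart from the agent. Against apicidin, the DAPT response was lower for 20 genes and higher for Rrm2, Tk1 and Mthfd1l, against 18.9% lower and 17.6% higher of 12379 genes tested. The gap was widest in Gart (-0.89 ± 0.05), Shmt1 (-0.78 ± 0.06) and Aprt (-0.75 ± 0.09), 3 genes with a positive value under apicidin. The higher calls of Rrm2 and Mthfd1l were lost without single libraries, as were the lower calls of Hprt, Umps and Dck.

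Of the 31 genes, 20 (64.5%) were both lower with DAPT and higher with shHdac3, a pattern of 1160 (9.51%) of the 12204 genes tested in all 3 experiments. Apicidin split these 20: 9 (Adss, Ctps, Dctd, Impdh2, Mthfd1, Mthfd1l, Nme1, Paics and Umps) were lower, Gart and Shmt1 were higher, and 9 (Adsl, Atic, Cad, Gmps, Hprt, Pfas, Ppat, Rrm1 and Uck2) did not pass. The apicidin calls of Adss, Dctd, Nme1, Paics and Shmt1 were lost under some alternatives, and Atic and Rrm1 passed under some. Among the 20, the shHdac3 calls of Adsl, Ctps, Dctd, Paics and Uck2 and the DAPT call of Rrm1 were also lost under some. Prps2 was lower with both DAPT and shHdac3. Across the 31 genes, those that were lower with DAPT tended to have higher values with shHdac3 (Pearson r -0.47, Spearman rho -0.49), while across 12388 genes r was -0.06 and rho -0.17. DAPT and apicidin values gave r of -0.05 and apicidin and shHdac3 values 0.19 across the 31 genes. These are descriptions across genes of the same libraries, and the 3 comparisons share no library.

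**Figure D4:**
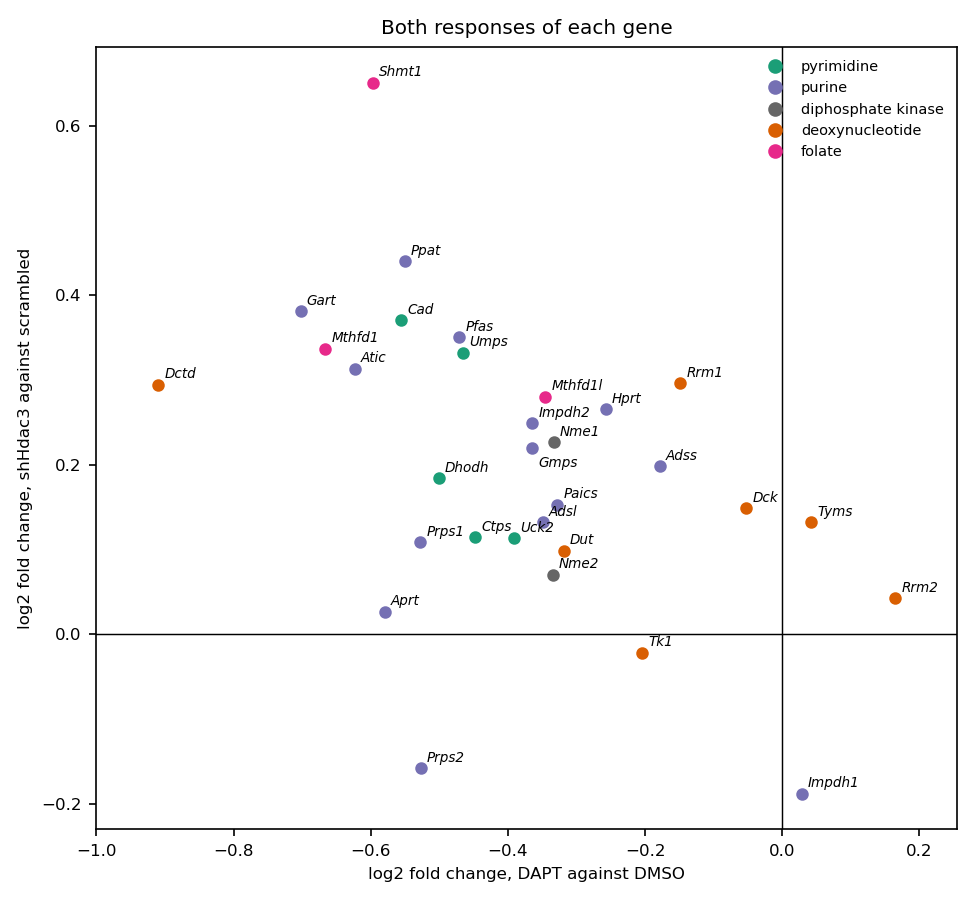
Log2 fold change with shHdac3 (vertical axis) against log2 fold change with DAPT (horizontal axis), both on the log2(value + 1) scale, for each of the 31 genes, coloured by role. Most points lie left of the vertical line and over the horizontal one; Shmt1 (-0.60, 0.65) is the highest, Dctd (-0.91, 0.29) is farthest left, and Rrm2, Tyms and Impdh1 lie right of 0.

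Further genes of these pathways changed as well. From a list of 75 further genes (purine and pyrimidine interconversion and breakdown, deoxynucleotide balance and transport, folate and serine metabolism), 66 were tested with DAPT, of which 32 were lower and 4 higher, beside 23.1% and 20.1% of all genes tested. Of 65 tested with shHdac3, 22 were higher and 4 lower, beside 22.5% and 19.4%. Of 65 tested with apicidin, 25 were lower and 7 higher, beside 19.9% and 18.2%. In the folate and serine list with DAPT, 15 of 23 fell, with the reduced folate carrier Slc19a1 (-0.67 ± 0.08), the mitochondrial serine hydroxymethyltransferase Shmt2 (-0.61 ± 0.04) and Gcsh of the glycine cleavage system (-0.55 ± 0.05) the lowest. Shmt2 had 7915 and 7874 normalized reads with DAPT against 12097 and 12054, and 7292 and 7213 with shHdac3 against 5320 and 5399. It was thus lower with DAPT and higher with shHdac3 (0.44 ± 0.04), as was Shmt1. With shHdac3, 11 of 22 folate and serine genes rose, led by Mat2a (0.45 ± 0.04), which makes S-adenosylmethionine, while Aldh1l1, which oxidizes 10-formyl folate, fell (-0.56 ± 0.12).

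Genes with the largest changes in these lists ran in both directions. With DAPT the nucleoside transporter Slc29a2 (-0.81 ± 0.21), the nucleotide hydrolase Dnph1 (-0.52) and the nucleotidase Nt5c (-0.44) fell, as did Nme6 (-0.55) and adenosine kinase Adk (-0.40). The mitochondrial UMP-CMP kinase Cmpk2 (0.92 ± 0.19, from 51.3 and 52.9 to 114 and 86.0) and Ctps2 (0.39 ± 0.06), the second CTP synthase, rose. Ctps2 thus lay opposite in sign to Ctps with DAPT, and with shHdac3 it fell (-0.16) while Ctps rose. With shHdac3 Ak4, a mitochondrial adenylate kinase, fell from 159 and 186 to 62.7 and 64.7 (-1.42 ± 0.16), and the nucleoside transporter Slc29a1 (0.38) and the AMP deaminase Ampd2 (0.35) rose. With apicidin the GMP reductase Gmpr fell to 6.56 and 3.64 from 18.2 and 24.6 (-1.90 ± 0.42), and Ak4 to 13.1 and 3.64 from 19.3 and 22.9 (-1.44 ± 0.46), both changes between low counts. Among folate and serine genes the low-count Ggh, a folate hydrolase (0.82 ± 0.27), and Amt of the glycine cleavage system (0.71 ± 0.24) rose with apicidin, and Aldh1l1 fell (-0.54 ± 0.11). Prpsap2, which associates with PRPP synthase (-0.43), Nt5m (-0.51), Nudt1 (-0.42) and Uprt (-0.57) fell too, and Rrm2b, the p53-inducible small reductase subunit, rose (0.28 ± 0.07).

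Genes of the cell cycle, Myc and cell type markers were set beside these changes. Over all genes tested the shares lower and higher were 23.1% and 20.1% with DAPT, 19.9% and 18.2% with apicidin, and 19.4% and 22.5% with shHdac3. Of 18 S phase genes, 12 were lower and 1 higher with DAPT (median -0.17), and their summed normalized reads were 160054 to 162557 with DAPT against 181680 to 182874. With shHdac3, 15 of the 18 were higher (median 0.32), with sums of 113158 to 114850 against 90250.5 to 90433.7. With apicidin 7 were lower and 3 higher, and the sums were 85329.3 to 85369 against 86587.6 to 86858.4. Of 14 mitosis genes, 4 were higher and 2 lower with DAPT (median -0.02, with shares near those of all genes), 7 were lower with apicidin, and 8 were higher and 1 lower with shHdac3. Myc, a transcription factor known to act on many nucleotide genes, stood at 5061 and 5337 with DAPT against 9342 and 9047 (-0.82 ± 0.04) and fell with apicidin (-0.20 ± 0.04). With shHdac3 it was at 4475 and 4238 against 4118 and 4291, which overlapped (0.05 ± 0.05, adjusted p = 0.39). Of 8 pre-T markers, 7 fell with DAPT and Dntt rose (0.50 ± 0.04), and all 8 fell with apicidin and with shHdac3. The T cell coreceptor genes Cd4 and Cd8a both rose with DAPT (0.46 each) and both fell with shHdac3 (-1.22 and -0.19). With apicidin Cd4 fell (-0.35) and Cd8a stood at 0.00. Trac, listed with these genes, was not among the gene symbols. Of 4 myeloid markers only Itgam reached the level for testing. It rose with DAPT (526 and 451 against 235 and 239) and with apicidin (793 and 747 against 527 and 505), and Lyz2, Csf1r and Cd14 were under 10 normalized reads in every library. Of 4 stromal markers, Col1a2 was higher in each comparison but low throughout (72.7 and 68.5 with DAPT against 27.7 and 20.6), Col1a1 fell with shHdac3 from 15.3 and 30.9 to 5.14 and 7.30, and Pdgfra and Dcn were at or near 0. The part of the S phase genes, Myc and the cell markers in the changes of the 31 genes was not tested.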

How the data were processed

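The authors deposited 1 table per experiment with a normalized signal per gene and library, and a mean signal, log2 fold change, test statistic (a score), p-value and adjusted p-value per gene, per the file headers; only the signal per library was used. The submitters' processing notes name the build mm9 and list FastQC, TopHat, Bowtie2 and DESeq2 with no version. How reads were counted, and whether by strand, is not given in the sources used here. All deposited signal values (100%, tolerance 1e-06) were whole multiples of 1 read's worth, and whole reads were recovered from them.

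The test was limma 3.58.1 under R 4.3.3, fitted to log2(value + 1) with a trend of variance on intensity, using the 4 libraries of a comparison, for genes at 10 or more in at least 2 of them, two-sided, Benjamini-Hochberg at 0.05 over all genes tested. The pseudocount of 1 understates changes of low genes. Differences between responses used all 12 libraries as 6 groups. Groups came from the sample titles. The scripts were tested on simulated reads. Alternatives were pseudocounts of 0.5 and 5, no filter, a minimum of 50, TMM and upper-quartile factors, edgeR (4.0.16) and DESeq2 (1.42.0) on recovered reads, a replicate block and leaving out each library.

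The members and gene lists were chosen with earlier results of these data known. All 31 members are accounted for, and of the further pathway genes up to 3 per list and comparison with the largest change that passed are named, apart from some genes not reported here; Myc, Hdac3, S phase and mitosis genes and cell markers were added as values that can move with them. Shared sequence and exon overlap were computed from GENCODE M21 transcripts (GRCm38). Coordinates are given only for the printed promoter windows and are in GRCm38.p6, whereas the files use another build.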

Additional observations from a re-analysis of the deposited data

How the results depend on the processing

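No member that was called changed direction under any alternative run. Estimates that did not pass turned sign under some alternatives for 1 member with DAPT (Impdh1), 8 with apicidin and 2 with shHdac3 (Aprt and Tk1). With DAPT, 26 of 27 lower calls and the higher call of Rrm2 held under all 13 alternatives. With apicidin 8 of 12 lower and 1 of 4 higher calls did, and with shHdac3 15 of 22 higher and 1 of 2 lower calls did. DESeq2 on recovered reads gave fewer calls over all genes. They were 1746 higher and 2191 lower with DAPT, 1239 and 1420 with apicidin, and 1695 and 1393 with shHdac3. Among the members it called 27 lower and 1 higher with DAPT, and 10 lower and 1 higher with apicidin. With shHdac3 it called 16 members higher and 2 lower. Upper-quartile factors gave 2 members with a higher response to DAPT than to shHdac3 and 1 with a higher response to apicidin than to shHdac3. The cause of these shifts was not tested.

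When 1 library was left out, the lone library was assumed to vary like the other groups. The higher members then ranged from 1 to 4 with apicidin (1 without apicidin replicate 2), and the lower members from 1 to 2 with shHdac3 (1 without shHdac3 replicate 2). Lower members ranged from 26 to 27 with DAPT and from 9 to 12 with apicidin, and higher members from 16 to 22 with shHdac3. Members with a higher response ranged from 1 to 4 for DAPT against apicidin (1 without apicidin replicate 1) and from 0 to 1 for apicidin against shHdac3 (1 without shHdac3 replicate 1).

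A replicate block gave 27 lower and 1 higher members with DAPT, 12 lower and 4 higher with apicidin, and 23 higher and 2 lower with shHdac3. Deviations of same-numbered libraries correlated at 0.02, 0.04 and 0.01, so the numbers were not taken to pair libraries. With 2 libraries a group and SEs of 0.04 to 0.11 on the log2 scale, the smallest change of a member that passed was 0.11.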
